A study of Bos taurus with 8 samples.

Results

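The transcripts described here are those of 6 hormone receptors in granulosa cells of beef cows collected in summer and in winter. They are the prolactin receptor (PRLR), the growth hormone receptor (GHR), the leptin receptor (LEPR), the insulin receptor (INSR) and both adiponectin receptors (ADIPOR1 and ADIPOR2). Each was taken by its symbol from the deposited table of TPM, a transcript level set relative to gene length and to the library total, so that 6 of 26804 listed genes were used, each in all 8 libraries. Their Ensembl identifiers are ENSBTAG00000025035 for PRLR, ENSBTAG00000001335 for GHR, ENSBTAG00000005910 for LEPR, ENSBTAG00000012687 for INSR, ENSBTAG00000009727 for ADIPOR1 and ENSBTAG00000009050 for ADIPOR2.

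The study asked how the granulosa cell transcriptome differs between a hot and a cool season. There were 4 summer libraries, from an ovum pick-up in August, and 4 winter libraries, from a pick-up dated January in the sample descriptions and February in the methods. Each library held the RNA of 2 cows, pooled, and all cows were multiparous, dry beef cows, in the methods Bos taurus crossbreeds. Before both sessions all were given the same progesterone device, gonadotropin-releasing hormone analog and follicle-stimulating hormone, so that no group was unstimulated. The cells were pelleted from aspirated follicular fluid and were not sorted, and in bulk RNA fewer cells of a type and less RNA per cell cannot be told apart. Each season was a single session, so that season and session cannot be told apart, and p-values measure the spread between pools.

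PRLR, GHR and LEPR belong to the class I cytokine receptors, which have no kinase of their own and signal through the bound kinase JAK2 to STAT transcription factors, STAT5A and STAT5B for prolactin and growth hormone and STAT3 for leptin. INSR is a receptor tyrosine kinase that works through the adaptors IRS1 and IRS2, and in the follicle insulin acts beside insulin-like growth factor 1 and its receptor IGF1R to sustain glucose use, growth and steroid synthesis. ADIPOR1 and ADIPOR2 are membrane proteins of the PAQR family that bind adiponectin, a hormone of fat tissue, and act through the adaptor APPL1, the kinase AMPK and PPAR transcription factors.

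A large and unequal share of each library was mitochondrial: the 13 protein-coding mitochondrial genes took 50.7, 68.4, 87.7 and 77.7% of TPM in summer libraries 1, 2, 3 and 5, against 92.0, 85.1, 88.5 and 89.5% in winter libraries 1, 3, 4 and 5. These genes were therefore left out of the total, the other genes were rescaled to 1e+06 in each library, and each library was then divided by its own trimmed-mean factor (scaled TPM). Between 11946 and 13063 of the 26804 genes were listed at 0 in a summer library, against 12746 to 13292 in a winter library. TPM keeps no read number, and the study gives only an average depth over the libraries, so that the depth of each one is unknown. Of 13046 genes that passed a filter on low values, 801 were called higher and 870 lower in summer by limma, at an adjusted p of at most 0.05 and a 2-fold change.

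The receptors covered a wide range of levels, and their order was the same in both seasons. ADIPOR1 was the most abundant, ADIPOR2 came next, INSR and GHR were low, and PRLR and LEPR were listed at 0 in most libraries. ADIPOR1 exceeded ADIPOR2, ADIPOR2 exceeded INSR, and INSR exceeded GHR in 8 of 8 libraries. The levels of INSR and GHR nevertheless overlapped across libraries, the lowest INSR value (4.04 scaled TPM) lying below the highest GHR value (6.06). Within a library, INSR over GHR was 1.3 to 8.17 in summer libraries and 1.09 to 2.59 in winter libraries. ADIPOR2 over INSR was 4.24 to 6.77 in summer libraries and 2.34 to 4.41 in winter libraries. Of the 6 receptors, 4 passed the filter (ADIPOR1, ADIPOR2, INSR and GHR), and 0 of these 4 passed the adjusted p, whereas 21.2% of all genes tested passed it and 12.8% were called (6.14% higher and 6.67% lower in summer). The seasons overlapped for each of the 4, while 24.3% of all genes tested had no overlap. At an unadjusted limma p below 0.05, ADIPOR1 and ADIPOR2 passed, both higher in summer. Of all 13046 genes tested, 2498 were higher and 2179 lower in summer at this unadjusted p.

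**Figure D1:**
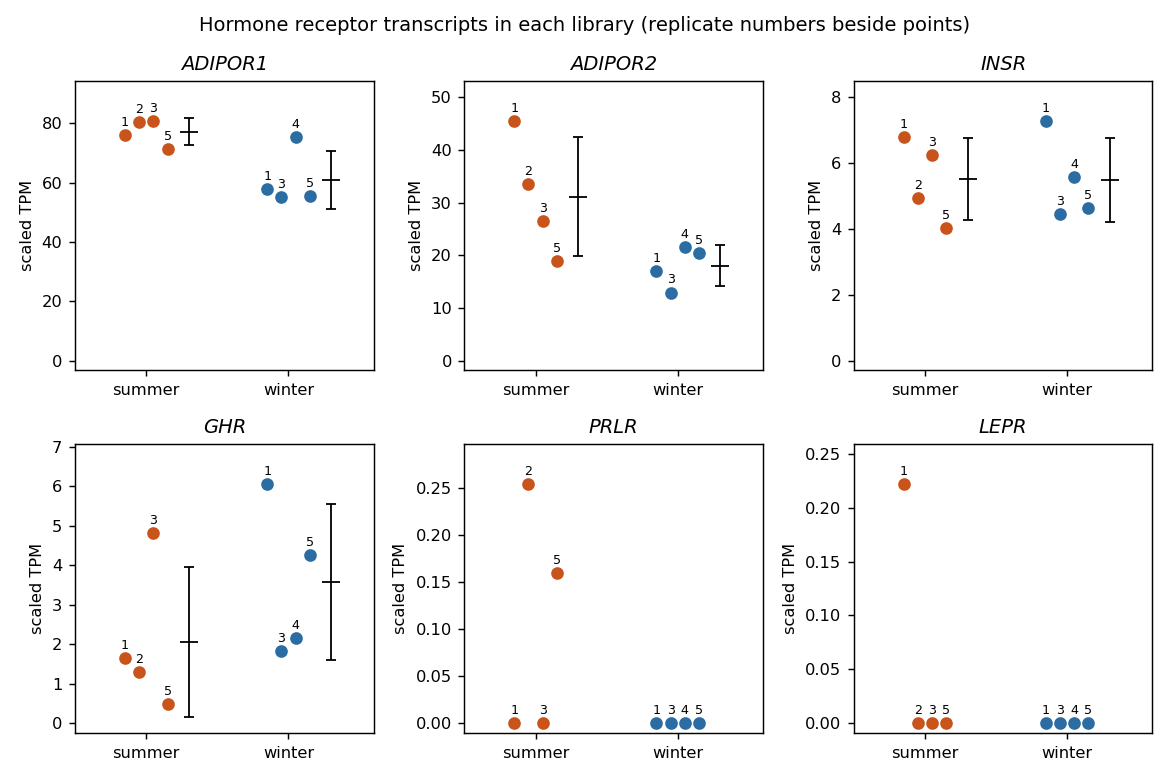
Scaled TPM of the 6 receptors (vertical axes, linear and different in each panel) in the 4 summer (orange) and 4 winter (blue) libraries, with replicate numbers beside the points. Horizontal ticks with bars give mean ± SD, drawn only for the 4 receptors above 0 in all libraries; ADIPOR1 in winter library 4 (75.5) sits among the summer libraries, and PRLR and LEPR are at 0 in all winter libraries.

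ADIPOR1, the adiponectin receptor coupled most closely to AMPK in mouse liver, had 76.1, 80.5, 80.8 and 71.2 scaled TPM in summer libraries 1, 2, 3 and 5, against 57.9, 55.1, 75.5 and 55.5 in winter libraries 1, 3, 4 and 5. The summer libraries were close together, and winter library 4 alone among the winter libraries reached their range. The mean was 77.1 ± 4.50 in summer and 61.0 ± 9.75 in winter (SD, n = 4 each). On the log2(scaled TPM + 1) scale ADIPOR1 was 0.34 higher in summer (SE 0.14, 95% interval 0.03 to 0.66), a 1.27-fold difference (1.02 to 1.58) with an adjusted p of 0.110. Without winter library 4 the difference was 0.45 with an adjusted p of 0.0454, past the adjusted p but under 2-fold. In every other fit that left out 1 library ADIPOR1 did not pass (limma adjusted p of 0.136 to 0.224). With the mitochondrial share as a covariate ADIPOR1 was 0.36 higher in summer (adjusted p = 0.343).

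ADIPOR2, the paralog tied more to PPAR signalling in mouse liver, showed the widest spread in summer. It had 45.5, 33.5, 26.5 and 19.0 scaled TPM in summer libraries 1, 2, 3 and 5, against 17.1, 12.9, 21.6 and 20.4 in winter libraries 1, 3, 4 and 5. Summer libraries 1, 2 and 3 lay above all winter libraries, and summer library 5 lay inside the winter range. The mean was 31.1 ± 11.3 in summer and 18.0 ± 3.89 in winter (SD, n = 4 each). ADIPOR2 was 0.71 higher in summer on the log2 scale (SE 0.27, 95% interval 0.12 to 1.31), a 1.64-fold difference (1.09 to 2.47) with an adjusted p of 0.0820. Without summer library 5 it was 0.92 with an adjusted p of 0.0396, and with array weights on all 8 libraries 0.84 with an adjusted p of 0.0431, both past the adjusted p but under 2-fold. In every other fit that left out 1 library ADIPOR2 did not pass. The limma adjusted p ran there from 0.0795 (without winter library 4) to 0.223 (without summer library 1). With the mitochondrial share as a covariate ADIPOR2 was 0.30 higher (adjusted p = 0.643).

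INSR, the receptor through which insulin reaches the cell, had 6.80, 4.95, 6.25 and 4.04 scaled TPM in summer libraries 1, 2, 3 and 5, against 7.28, 4.47, 5.57 and 4.63 in winter libraries 1, 3, 4 and 5. The seasons were interleaved. The mean was 5.51 ± 1.25 in summer and 5.49 ± 1.29 in winter (SD, n = 4 each). The log2 difference was 0.00 (SE 0.26, 95% interval -0.57 to 0.58, adjusted p = 0.991). The interval still holds folds of 0.675 to 1.49, and so a modest change in either direction was not detectable with 4 pools per season.

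GHR, the receptor of growth hormone, was the most variable of the 4 relative to its level. It had 1.66, 1.3, 4.81 and 0.495 scaled TPM in summer libraries 1, 2, 3 and 5, against 6.06, 1.83, 2.15 and 4.25 in winter libraries 1, 3, 4 and 5. Of the summer libraries, 3 lay below all winter libraries, and summer library 3 lay above all winter libraries but the first. The mean was 2.07 ± 1.89 in summer and 3.57 ± 1.98 in winter (SD, n = 4 each). GHR was -0.66 in summer relative to winter on the log2 scale (SE 0.44, 95% interval -1.64 to 0.32), a fold of 0.633 (0.321 to 1.25) with an adjusted p of 0.313. The size of this difference depended on the value added before the log2. With 0.5 added in place of 1 it was -0.81 (adjusted p = 0.303), and with 5 added -0.29 (adjusted p = 0.352). Array weights gave -0.85 (adjusted p = 0.124). Without summer library 3 it was -1.02 (adjusted p = 0.0914), and without summer library 5 -0.37 (adjusted p = 0.611). All other fits that left out 1 library lay between these. With the mitochondrial share as a covariate the log2 difference was -0.23 (adjusted p = 0.868).

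PRLR, the receptor of prolactin, had 0.255 scaled TPM in summer library 2 and 0.160 in summer library 5, and was listed at 0 in summer libraries 1 and 3 and in all 4 winter libraries. As deposited these values were 0.0818 and 0.0402 TPM. LEPR, the receptor of leptin, had 0.222 scaled TPM in summer library 1 (0.120 TPM as deposited) and was listed at 0 in the other libraries of both seasons. Both fell below the filter on low values and were not tested. A value of 0 in this table cannot be read as absence of the transcript, because the depth of each library is unknown and a large part of each library was mitochondrial. Summer libraries 1, 2 and 5, the 3 in which LEPR or PRLR was above 0, were also the 3 with the smallest mitochondrial shares (50.7, 68.4 and 77.7%, against 85.1% or more in the others). The part of this share in the values was not tested.

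On deposited TPM, whose total includes the mitochondrial genes, each of the 4 tested receptors stood higher in summer than it did on scaled TPM. The median gene tested was then 0.89 higher in summer on the log2 scale, against 0.03 on scaled TPM. Deposited ADIPOR1 was 41.0, 25.9, 11.8 and 17.9 TPM in summer libraries and 4.34, 7.34, 7.53 and 5.36 TPM in winter libraries, a log2 difference of 1.71 (adjusted p = 0.00423). Deposited ADIPOR2 was 24.5, 10.8, 3.89 and 4.78 TPM in summer libraries and 1.28, 1.72, 2.15 and 1.97 TPM in winter libraries, a log2 difference of 1.80 (adjusted p = 0.00219). Both adiponectin receptors thus exceeded the median gene on either scale. INSR stood at 0.77 (adjusted p = 0.0297) and GHR at 0.18 (adjusted p = 0.351) on deposited TPM, both under the median gene, and the sign of GHR was the opposite of that on scaled TPM. With the mitochondrial genes left out but no factor between libraries, where the median gene was 0.28 higher in summer, ADIPOR1 was 0.63 (adjusted p = 0.00796) and ADIPOR2 0.99 higher (adjusted p = 0.0158).

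**Figure D2:**
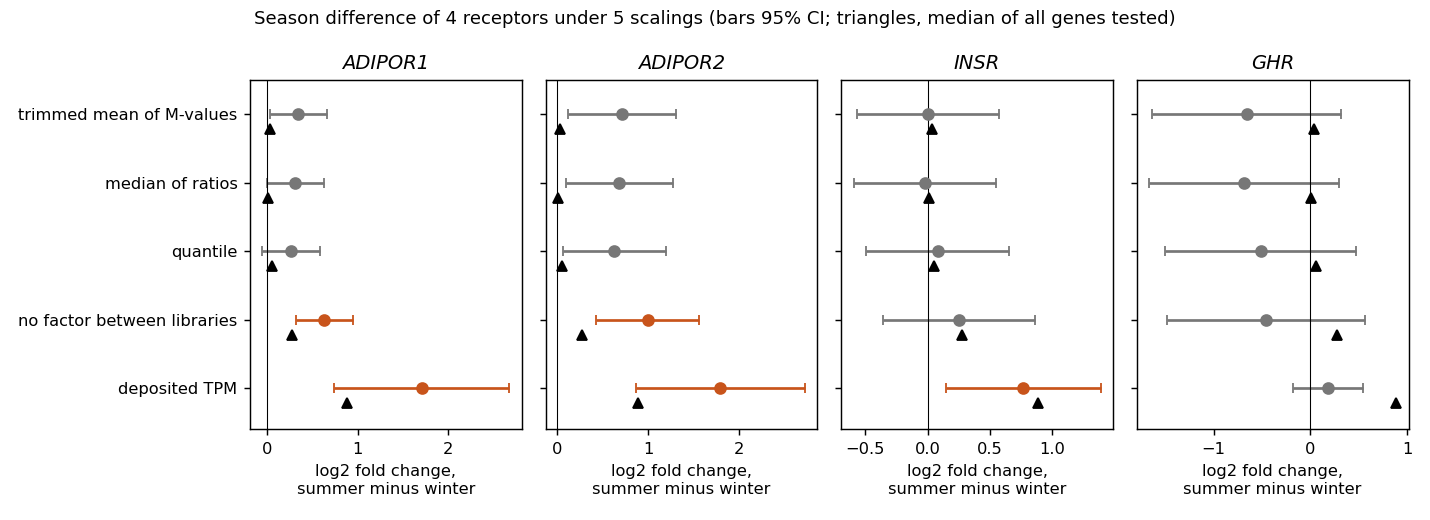
Log2 fold change, summer minus winter (horizontal axes, different in each panel), of 4 receptors under 5 scalings (rows), with 95% intervals. Orange marks an adjusted p of at most 0.05, grey a larger p, and black triangles the median of all genes tested; ADIPOR1 and ADIPOR2 lie to the right of the triangle in every row, and GHR changes sign in the last.

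Some measures do not depend on any factor between libraries. The rank of ADIPOR1 among genes above 0 was in the top 10.1 to 11.7% of summer libraries and the top 11.5 to 14.5% of winter libraries. ADIPOR2 ranked in the top 17.1 to 32.1% of summer libraries and the top 30.3 to 39.3% of winter libraries. INSR ranked at 50.4 to 62.8% from the top in summer libraries and 54.9 to 63.4% in winter libraries, and GHR at 61.8 to 90.5% and 59.2 to 78.2%. The ranks of each receptor overlapped between seasons.

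The ratio of ADIPOR1 to ADIPOR2 within a library compares both adiponectin receptors directly. It was 1.67, 2.40, 3.05 and 3.75 in summer libraries 1, 2, 3 and 5 (mean 2.72 ± 0.888, SD), against 3.40, 4.26, 3.50 and 2.72 in winter libraries 1, 3, 4 and 5 (mean 3.47 ± 0.632, SD). ADIPOR1 thus led in each library, by the smallest margin in summer libraries 1 and 2, and the seasons overlapped. INSR stood well below its nearest relative IGF1R. The ratio of INSR to IGF1R was 0.127, 0.123, 0.105 and 0.135 in summer libraries, against 0.185, 0.0902, 0.125 and 0.172 in winter libraries, and the summer values lay inside the winter range. GHR over PRLR existed only where PRLR was above 0 and was 5.09 in summer library 2 and 3.10 in summer library 5.

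**Figure D3:**
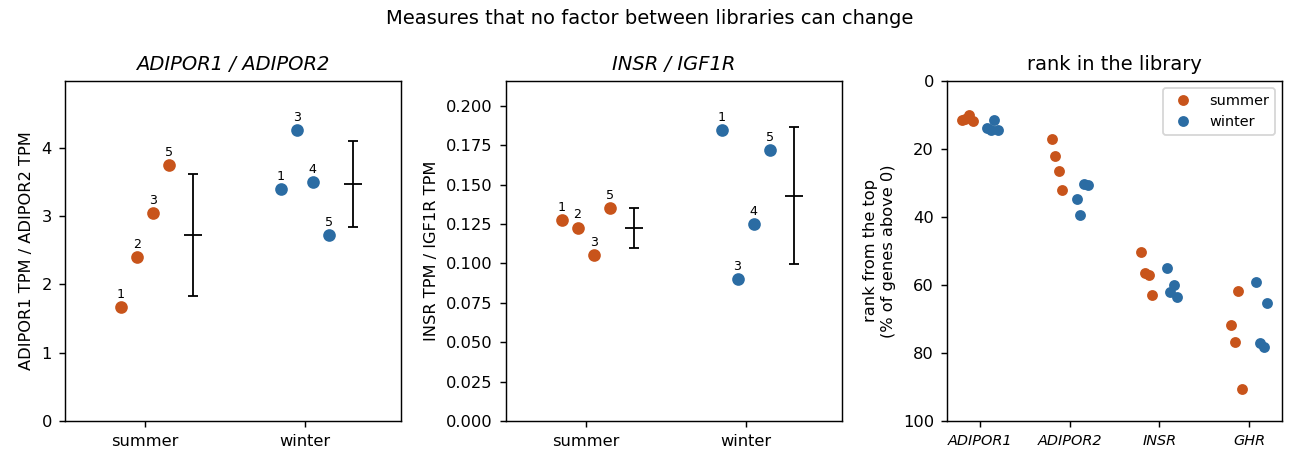
Ratio of ADIPOR1 to ADIPOR2 (left), ratio of INSR to IGF1R (middle) and rank of 4 receptors from the top of each library in percent of genes above 0 (right, axis running downwards), in summer (orange) and winter (blue) libraries. Replicate numbers stand beside the points, and horizontal ticks with bars give mean ± SD (n = 4 each); the seasons overlap in both ratios and in each rank.

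The profiles of ADIPOR1, ADIPOR2 and INSR lay closer to each other than any of them did to that of GHR. After centring each gene on its mean over the 8 libraries, the root mean square difference of log2(scaled TPM + 1) was smallest between INSR and ADIPOR1 (0.29) and between ADIPOR1 and ADIPOR2 (0.38). It was 0.47 between INSR and ADIPOR2, 0.59 between GHR and INSR, 0.81 between GHR and ADIPOR1 and 0.94 between GHR and ADIPOR2. This measure is not scaled to the spread of each gene, so that a variable gene such as GHR lies far from most genes. The median candidate gene lay at 0.84 from GHR and at 0.49 from INSR. The distances between receptors were therefore not read as a grouping. Among 12008 candidate genes, those closest to ADIPOR1 over the 8 libraries were INO80E (0.06) and SDHAF3 (0.07), where the median candidate was at 0.46. Those closest to ADIPOR2 were MGAT1 (0.19) and GEM (0.20), against a median of 0.64. INSR was closest to IPO11 (0.10) and RAB11FIP2 (0.10), with a median of 0.49, and GHR to SREK1IP1 (0.27) and FHIP2A (0.28), with a median of 0.84. MGAT1 had its highest winter value in library 4, as ADIPOR1 and ADIPOR2 did. The adjusted p of these 8 genes for season ran from 0.117 for GEM to 0.976 for IPO11.

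The hormones that these receptors bind were listed at 0 in most libraries of the cells themselves. Growth hormone (GH1), leptin (LEP) and insulin (INS) were listed at 0 in all 8 libraries. Prolactin (PRL) was listed at 0 in all summer libraries and had 0.705 scaled TPM in winter library 1 only. Adiponectin (ADIPOQ) was listed at 0 in all summer libraries and had 0.404 and 1.06 scaled TPM in winter libraries 3 and 5. IGF1, the main hormone induced by growth hormone in liver, had 0.112 in summer library 2, against 0.416 and 0.535 in winter libraries 1 and 4, and 0 elsewhere. Of 17 hormones and related ligands listed, 6 passed the filter and 0 of these passed the adjusted limma p in either direction, as did 0 at an unadjusted p of 0.05 (median log2 difference 0.30, against 0.03 for all genes tested).

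Downstream of the cytokine receptors, STAT5A and STAT5B fell in summer on scaled TPM, though not on deposited TPM, and JAK2 and STAT3 did not pass the test. JAK2, the kinase bound by PRLR, GHR and LEPR, had 3.61 ± 0.577 scaled TPM in summer and 4.02 ± 1.42 in winter (SD, n = 4 each), a log2 difference of -0.09 (adjusted p = 0.860). STAT5A, which carries the signal of prolactin and growth hormone to the nucleus, had 5.78, 5.14, 9.87 and 5.53 in summer libraries 1, 2, 3 and 5, against 18.7, 18.9, 12.9 and 20.1 in winter libraries 1, 3, 4 and 5. All summer libraries lay below all winter libraries, with summer library 3 and winter library 4 nearest to each other. STAT5A fell by 1.32 on the log2 scale (SE 0.25, adjusted p = 0.00607). Its paralog STAT5B had 1.58, 2.10, 4.25 and 2.29 in summer libraries, against 7.45, 7.24, 6.64 and 7.11 in winter libraries, again without overlap, and fell by 1.24 (SE 0.27, adjusted p = 0.0112). The paralogs are alike in sequence, and their values may share reads. On deposited TPM STAT5A stood at 0.04 and STAT5B at -0.03, both far under the median gene, and neither passed with the mitochondrial share as a covariate (adjusted p = 0.119 and 0.203). STAT3, the main factor of leptin signalling, had 26.5 ± 10.2 in summer and 24.3 ± 7.91 in winter (SD, n = 4 each), a log2 difference of 0.12 (adjusted p = 0.811).

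Over all genes tested, 11% were higher and 10.2% lower in summer past the adjusted p, the shares against which the list counts that follow are to be read. For counts at an unadjusted limma p of 0.05, the background was 2498 higher and 2179 lower of 13046. Of 23 tested genes of the JAK and STAT relay, 0 rose (0 also at an unadjusted limma p of 0.05) and 6 fell past the adjusted p, 5 of these also by 2-fold, with a median of -0.36. Summed leukocyte markers fell too, by 2.66 on the log2 scale. STAT6, a factor of interleukin signalling, fell by 1.06 (adjusted p = 0.00765), and the Src family kinase FYN fell by 1.57 (adjusted p = 0.00668). On deposited TPM STAT6 stood at 0.26 and FYN at -0.14. The adaptor GAB2, named after its value was seen, fell by 1.33 (adjusted p = 0.0284). Among 23 tested STAT5 targets and inhibitors of cytokine receptors, 0 rose (2 at an unadjusted limma p of 0.05) and 3 fell (median -0.15). Those that fell were the phosphatase PTPN6, by 1.91 (adjusted p = 0.00251), the leukocyte phosphatase PTPRC, by 2.31 (adjusted p = 0.00592), and the IGF carrier IGFBP3, by 1.24 (adjusted p = 0.0121) but with a difference of 0.12 on deposited TPM. PTPN6 stood at -0.37 (adjusted p = 0.361) and PTPRC at -0.71 (adjusted p = 0.0521) on deposited TPM. The targets best known for induction by STAT5 did not pass. CISH averaged 4.81 ± 0.949 scaled TPM in summer and 6.36 ± 1.54 in winter (SD, n = 4 each; log2 difference -0.33, adjusted p = 0.374), and SOCS2 averaged 0.528 ± 0.230 in summer and 1.48 ± 0.667 in winter (SD, n = 4 each; log2 difference -0.66, adjusted p = 0.118).

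Relatives of the receptors were tested in the same way. Of 20 tested relatives, 1 rose and 3 fell, all 4 by at least 2-fold (median 0.12). The common gamma chain IL2RG, a subunit of several interleukin receptors, had 0.979, 1.48, 4.32 and 4.18 scaled TPM in summer libraries, against 14.2, 35.4, 22.4 and 39.4 in winter libraries, and fell by 2.98 (adjusted p = 0.00152). The interleukin receptor chain IL7R fell by 2.33 (adjusted p = 0.00849), in the direction of the leukocyte markers. In the PAQR family of the adiponectin receptors, PAQR4 was at 0, 0.227, 0.662 and 0 in summer libraries, against 1.27, 2.46, 1.08 and 2.15 in winter libraries (log2 difference -1.16, adjusted p = 0.0153, or 0.0540 without summer library 1). PAQR4 stood at -0.18 on deposited TPM (adjusted p = 0.120). Another member, MMD, rose to 285, 146, 166 and 183 in summer libraries, against 60.7, 78.1, 143 and 67.6 in winter libraries (log2 difference 1.19, adjusted p = 0.0143). IGF1R had 45.8 ± 13.3 in summer and 40.1 ± 9.69 in winter (SD, n = 4 each; log2 difference 0.17, adjusted p = 0.658).

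In the insulin relay, 1 of 31 tested genes rose and 6 fell, 2 of them by 2-fold (median -0.15). The gene that rose, named after its value was seen, was SREBF1, a factor of lipid synthesis (log2 difference 1.0, adjusted p = 0.0337, with overlap between seasons). Before rounding it lay just under the 2-fold limit, and it was not called. The adaptor IRS1 had 34.9, 15.1, 17.3 and 7.73 scaled TPM in summer libraries, against 10.1, 11.8, 14.6 and 8.55 in winter libraries (log2 difference 0.53, adjusted p = 0.336). The highest value was that of summer library 1, and the seasons overlapped. IRS2 had 1.42 ± 0.508 in summer and 1.80 ± 0.606 in winter (SD, n = 4 each; log2 difference -0.20, adjusted p = 0.642). PIK3CD, a catalytic subunit of PI3-kinase found mainly in leukocytes, fell by 1.32 (adjusted p = 0.00906), and the transcription factor FOXO3, which insulin keeps out of the nucleus, fell by 1.06 (adjusted p = 0.0388) on scaled TPM but stood at 0.11 on deposited TPM. PIK3CD stood at -0.20 on deposited TPM (adjusted p = 0.135). FOXO3 missed the threshold in 6 of the 8 fits that left out 1 library (adjusted p of 0.0627 to 0.0913 without summer library 1, 2 or 5 or winter library 1, 3 or 5).

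Of 20 tested inhibitors of the insulin receptor and its relay, 2 rose and 2 fell (median 0.07), shares near the 11% and 10.2% of all genes tested. TRIB2, a pseudokinase that binds AKT, had 571, 515, 431 and 607 scaled TPM in summer libraries, against 187, 302, 303 and 278 in winter libraries, without overlap, and rose by 1.0 (SE 0.18, adjusted p = 0.0043). TRIB2 was thus far more abundant than any of the receptors. Its relative TRIB3 was at 0.0820, 0.227, 0 and 0 in summer libraries, against 0.844, 2.26, 1.90 and 3.76 in winter libraries (log2 difference -1.49, adjusted p = 0.00744). The lipid phosphatase INPP5D, best known in leukocytes, had 0.0883, 0.286, 0.0792 and 0.870 in summer libraries, against 3.33, 4.20, 3.70 and 3.47 in winter libraries, and fell by 1.85 (adjusted p = 0.0016). The adaptor GRB14, which binds the activated insulin receptor and is named here after its value was seen, averaged 147 ± 53.0 in summer and 85.7 ± 15.3 in winter (SD, n = 4 each; log2 difference 0.73, adjusted p = 0.0485) and passed the adjusted p but not the 2-fold limit.

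Of 11 tested leptin receptor partners, 0 rose (0 also at an unadjusted limma p of 0.05) and 1 fell (median -0.12). That gene, named after its value was seen, was POMC, the precursor made by leptin-responsive neurons of the brain (log2 difference -0.92, adjusted p = 0.0260). LEPROT, which in human shares its first exons with LEPR and holds the receptor inside the cell, had 20.3, 18.6, 12.1 and 24.6 scaled TPM in summer libraries, against 28.1, 12.6, 20.3 and 17.9 in winter libraries (log2 difference -0.05, adjusted p = 0.920). LEPROT was therefore measured in every library, LEPR in only 1. In the bovine RefSeq annotation (ARS-UCD2.0) LEPROT is the next protein-coding neighbour of LEPR, and their spans do not overlap.

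The adiponectin relay had 30 tested genes, of which 5 rose and 2 fell (median 0.16). APPL1, the adaptor that binds both adiponectin receptors, had 21.7 ± 8.25 scaled TPM in summer and 17.2 ± 2.93 in winter (SD, n = 4 each; log2 difference 0.27, adjusted p = 0.469). ERP44, a chaperone that retains adiponectin in secreting cells, had 155, 113, 80.0 and 108 in summer libraries, against 34.4, 52.1, 54.6 and 30.8 in winter libraries, and rose by 1.39 (SE 0.24, adjusted p = 0.00381). The ceramidase ACER3 rose by 1.40 (adjusted p = 0.00686). The AMPK subunits that were called moved in opposite directions. PRKAG1, the most abundant AMPK subunit listed and named after its value was seen, overlapped between seasons. It had 52.3, 57.0, 43.5 and 50.7 in summer libraries, against 46.7, 47.0, 44.0 and 52.4 in winter libraries. PRKAG3, a regulatory subunit best known in skeletal muscle, had 4.69, 3.82, 4.72 and 3.59 in summer libraries, against 15.8, 18.6, 11.8 and 16.2 in winter libraries, and fell by 1.66 (SE 0.23, adjusted p = 0.00145). On deposited TPM PRKAG3 stood at -0.19 (adjusted p = 0.641). The catalytic subunit PRKAA2 had 3.28, 2.27, 4.66 and 1.58 in summer libraries, against 0, 2.28, 0.301 and 0.597 in winter libraries (log2 difference 1.23, adjusted p = 0.0488), with overlap between seasons. It missed the threshold in 7 of the 8 fits that left out 1 library, all but that without winter library 3 (adjusted p of 0.0539 to 0.117). PPARG, a lipid-sensing nuclear receptor named here after its value was seen, averaged 74.3 ± 8.84 in summer and 38.5 ± 12.2 in winter (SD, n = 4 each) and passed the adjusted p (0.00937) at a log2 difference of 0.97. Under 2-fold, and also named after their values were seen, the endosomal RAB5A rose by 0.58 (adjusted p = 0.0464) and the scaffold RACK1 fell by 0.67 (adjusted p = 0.0058).

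Among 19 tested genes for folding, shedding and turnover of receptors, 4 rose and 0 fell (0 also at an unadjusted limma p of 0.05), each of the 4 by at least 2-fold (median 0.41), where 11% of all genes tested rose and 10.2% fell. ADAM10 and NCSTN, parts of the proteolytic machinery that cuts receptors at and within the membrane, rose by 1.63 (adjusted p = 0.00325) and 1.29 (adjusted p = 0.00703). The endoplasmic reticulum chaperone HSP90B1 had 1744, 1663, 526 and 1717 scaled TPM in summer libraries, against 266, 380, 359 and 311 in winter libraries, and rose by 1.96 (adjusted p = 0.0041). Calnexin (CANX) rose by 1.23 (adjusted p = 0.00158). Over all these lists, with each gene counted once, 13 of 171 tested genes rose and 23 fell past the adjusted p. That was 21.1% of them, close to the 21.2% of all genes tested, and the median was -0.04. Of the 24 called genes that the naming rule gave, 4 (IL2RG, INPP5D, PRKAG3 and CANX) still passed with the mitochondrial share as a covariate. Of these 4, PRKAG3 did not pass on deposited TPM (adjusted p = 0.641).

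**Figure D4:**
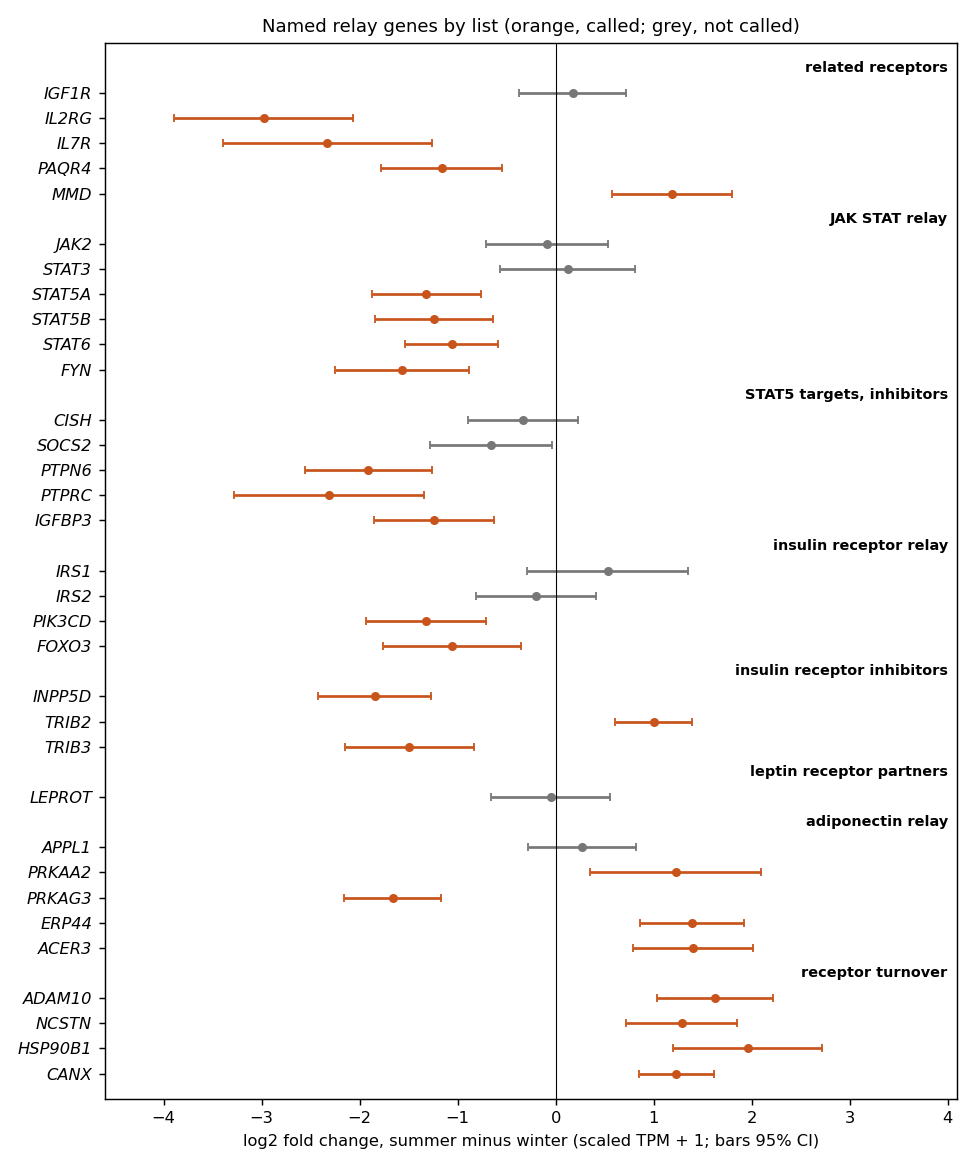
Log2 fold change, summer minus winter, on the log2(scaled TPM + 1) scale (horizontal axis) with 95% intervals for the named genes around the receptors, grouped by list. Orange marks genes called at an adjusted p of at most 0.05 and a 2-fold change, grey those not called; STAT5A (-1.32) and STAT5B (-1.24) lie left of 0 on this scale (on deposited TPM they stand at 0.04 and -0.03), and JAK2 (-0.09) and STAT3 (0.12) near it.

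The seasons also differed in RNA of cell type markers. Granulosa cell markers were present in every library, with 0 of 15 at 0 throughout a season. They summed to 32367 to 82854 scaled TPM in summer libraries, against 16470 to 22054 in winter libraries (log2 difference 1.55, 14 of 15 higher). Leukocyte markers summed to 40.4 to 145 in summer libraries, against 374 to 648 in winter libraries (log2 difference -2.66, 15 of 15 lower, 0 of 15 at 0 throughout a season). Each gave an exact permutation p of 0.0286 (two-sided, 70 assignments), the smallest that 4 against 4 allows, or 0.0457 after adjustment over 8 marker lists. STAT5A, STAT5B, STAT6, IL2RG, IL7R, PTPN6, PTPRC, PIK3CD and INPP5D fell together with the leukocyte markers, of which PTPRC is itself a member, and TRIB2 and MMD rose together with the granulosa markers. So did every other gene called in the same direction, among them FYN, IGFBP3 and PRKAG3 (lower) and HSP90B1, ERP44 and CANX (higher). Moving with a marker list therefore does not set these genes apart. The part of these cell types in the result was not tested. Among the receptors, ADIPOR1 and ADIPOR2 had their higher means in the season with more granulosa marker RNA and GHR in the season with less, and the part of this in their values was likewise not tested.

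Red cell markers summed to 42.1 to 105 scaled TPM in summer libraries, against 573 to 42458 in winter libraries, and fibroblast markers to 173 to 311, against 388 to 1179 (exact permutation p = 0.0286 each, two-sided, adjusted 0.0457). By their means, 8 of 8 red cell markers were lower in summer, whereas 8 of 11 fibroblast markers were lower and 3 higher. Oocyte markers summed to 10.4 to 16.3 in summer libraries, against 0.792 to 2.52 in winter libraries, with the same p, and 1 of 12 was at 0 in all summer libraries, against 7 of 12 in all winter libraries. Epithelial markers summed to 657 to 1534, against 1465 to 4294 (exact permutation p = 0.0571, two-sided), with 6 of 9 lower and 3 higher in summer. Theca markers (209 to 416, against 103 to 571) and endothelial markers (6.41 to 17, against 4.54 to 14.9) overlapped between seasons, with exact permutation p values of 0.686 and 0.543. Members of both lists were split, with 5 of 8 theca markers higher and 3 lower, and 3 of 10 endothelial markers higher and 7 lower in summer.

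**Figure D5:**
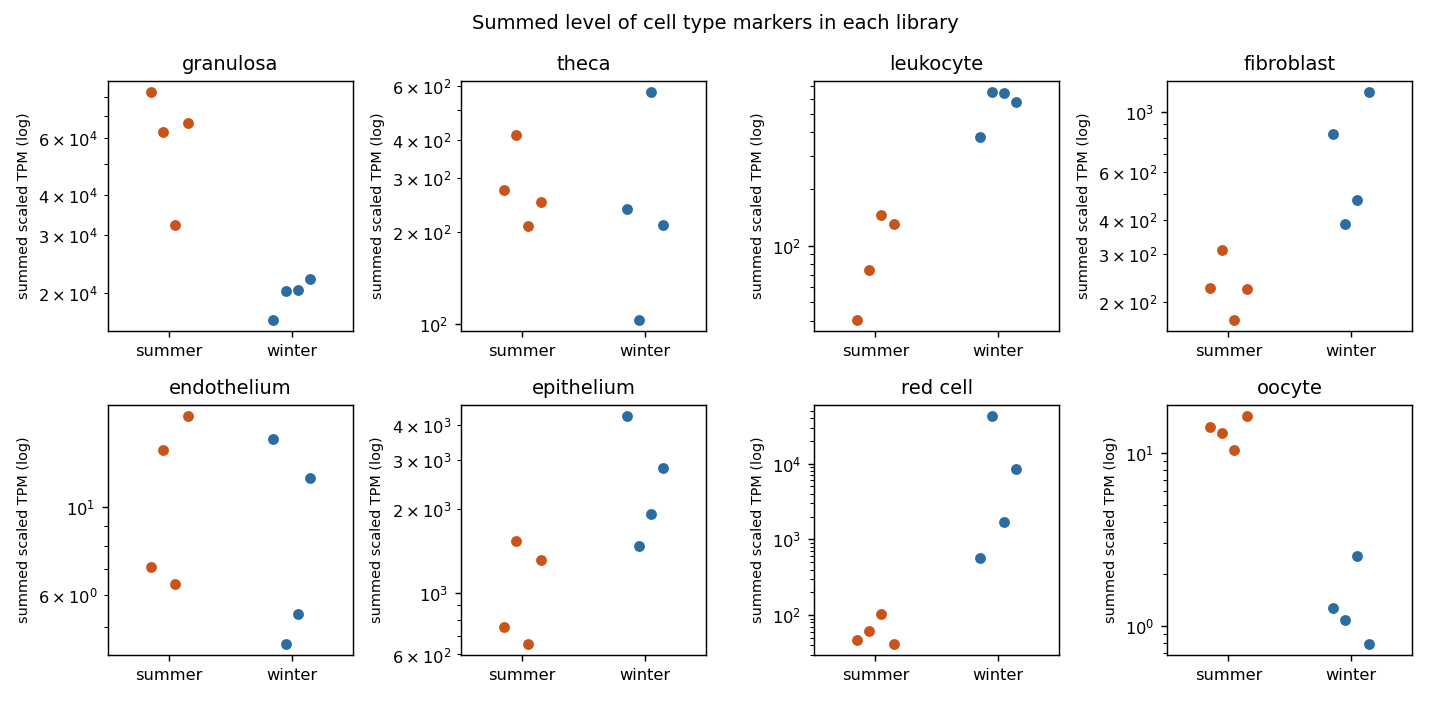
Summed scaled TPM of 8 lists of cell type markers (vertical axes, logarithmic and different in each panel) in the 4 summer (orange) and 4 winter (blue) libraries, 1 point per library. Granulosa markers lie at 32367 to 82854 in summer and 16470 to 22054 in winter, and leukocyte markers at 40.4 to 145 in summer and 374 to 648 in winter.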

How the data were processed

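Poly(A) RNA of granulosa cells was sequenced as paired-end reads. The authors deposited TPM per gene. Their methods name CLC Genomics Workbench, ARS-UCD1.3 and trimmed-mean normalization, whereas the submitters' processing notes name Bowtie2 2.2.2, DESeq2 and ARS-UCD1.2; they also name different RNA kits. Each deposited column sums to 1e+06, so that no factor between libraries remains.

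For scaled TPM, 13 mitochondrial genes were left out, the rest was set to 1e+06, and an unweighted trimmed mean of M-values (M trim 0.3, A trim 0.05) was applied. Genes were kept if their zFPKM exceeded -3 throughout the 4 libraries of at least 1 season. Season was the sole term of a limma 3.58.1 fit (R 4.3.3, lmFit and trended eBayes) to log2(scaled TPM + 1), and p-values were adjusted by Benjamini-Hochberg over the genes kept. Differences are summer minus winter, and folds are understated for low genes. A called gene also exceeded this zFPKM throughout its higher season. Marker sums were compared by exact permutation.

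The receptors and the lists (ligands, relatives, relays, inhibitors, leptin partners, turnover, cell type markers) were chosen with earlier results of these data known. Named genes were the receptors, up to 4 called genes of smallest adjusted p per list, the 2 most alike profiles per tested receptor, and fixed names (LEPROT, IGF1R, IRS1, IRS2, JAK2, STAT3, STAT5A, STAT5B, SOCS2, CISH, APPL1, IGF1 and the hormones). Alternatives covered scaling, pseudocount, filter, variance model, mitochondrial share, replicate block and leaving out each library. All 6 symbols matched RefSeq names (ARS-UCD2.0); sequences were not used here. Figures were drawn with matplotlib 3.10.9.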

Additional observations from a re-analysis of the deposited data

Results flagged for a closer look

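In 8 of the 116 groups of 4 libraries examined, the lowest or highest library stood apart by Dixon's criterion for 4 values, which chance reaches in about 1 in 20 groups. Where all other libraries of the group are at 0, any value above 0 is flagged, and that rate does not apply. This was so for LEPR, PRL and IGF1. Among the receptors, LEPR stood apart in summer library 1 (0.222 scaled TPM, the other summer libraries at 0), and ADIPOR1 stood apart in winter library 4 (75.5, the other winter libraries at 55.1 to 57.9). MGAT1, the closest profile to ADIPOR2, also stood apart in winter library 4 (37.7, others 26.8 to 28.1). Summer library 3 stood apart for STAT5A (9.87, others 5.14 to 5.78) and for HSP90B1 (526, others 1663 to 1744), in each case on the side of the winter libraries. In winter library 1, NCSTN was low (20.3, others 26.7 to 26.8) and PRL high (0.705, others at 0). IGF1 was above 0 in summer library 2 alone among the summer libraries (0.112).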

How the results depend on the processing

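On deposited TPM the log2 differences were 1.71 for ADIPOR1, 1.80 for ADIPOR2, 0.77 for INSR and 0.18 for GHR, and 5529 genes were called higher and 81 lower in summer, 98.6% of calls being higher against 47.9% on scaled TPM. Without a factor between libraries they were 0.63 for ADIPOR1 and 0.99 for ADIPOR2, with 1570 genes called higher (70.7% of calls). Array weights gave 0.84 for ADIPOR2. INSR, at 0.00, was -0.022 with median-of-ratios factors and -0.062 with the mitochondrial share as covariate, which gave 0.36 for ADIPOR1, 0.30 for ADIPOR2 and -0.23 for GHR. With each library left out in turn, ADIPOR1 was 0.30 to 0.45, ADIPOR2 0.51 to 0.92, INSR -0.089 to 0.13 and GHR -1.02 to -0.37, and 504 (without summer library 1) to 1002 genes were called higher and 601 to 931 lower. A pseudocount of 5 gave 388 higher and 403 lower, and the mitochondrial share as covariate 99 higher and 169 lower. With a pseudocount of 0.1 the mean log2 difference was 0.80 for PRLR and 0.42 for LEPR, whose winter values are all 0.

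Of the 24 called genes named, 4 (IL2RG, INPP5D, PRKAG3 and CANX) stayed past the threshold with the mitochondrial share as covariate, and 13 on deposited TPM, where STAT5A (0.043), STAT6 (0.26), IGFBP3 (0.12) and FOXO3 (0.11) turned positive. Another 7 kept their sign on deposited TPM but missed the threshold. They were PTPRC (-0.71), PTPN6 (-0.37), PIK3CD (-0.20), PRKAG3 (-0.19), PAQR4 (-0.18), FYN (-0.14) and STAT5B (-0.028). Genes not called also turned: on deposited TPM LEPROT (1.15), IRS2 (0.25), JAK2 (0.57), SOCS2 (0.045), CISH (0.59), SREK1IP1 (0.22), FHIP2A (0.33) and RAB11FIP2 (0.76); without a factor LEPROT (0.23), JAK2 (0.14) and RAB11FIP2 (0.081); LEPROT with array weights (0.051), JAK2 with quantile normalization (0.054), IPO11 with median-of-ratios factors (-0.015), and IRS1 (-0.10) and STAT3 (-0.27) with the mitochondrial covariate. Leaving out 1 library gave -0.23 to 0.14 for LEPROT, -0.00061 to 0.36 for IGF1R, -0.25 to 0.059 for JAK2, -0.15 to 0.28 for STAT3, -0.068 to 0.10 for IPO11 and -0.14 to 0.69 for theca markers. The exact permutation p was 0.0571 for granulosa markers without any 1 winter library and for fibroblast and red cell markers without any 1 summer library, and 0.0286 for epithelial markers without winter library 3. With 1 library left out the groups are unequal and fewer assignments exist, so that these p values are not comparable with those of all 8 libraries. On the scaling of all 8 libraries, the granulosa, fibroblast and red cell sums did not overlap between seasons. The cause of the changes in log2 differences and calls was not tested.

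Libraries 1, 3 and 5 share a number between seasons. Deviations from the season means correlated at 0.04, 0.16 and 0.11 for these numbers. The values for 3 and 5 were the highest of any summer library with any winter library. Winter library 1 correlated slightly more with summer library 2 (0.05) than with summer library 1. The methods describe the same cows in both seasons and the removal of a failed summer oocyte pool with its corresponding pools. Which cows each pool held is not given, and these correlations cannot decide it, so that the numbers were not used as pairs. The main fit therefore treats the libraries as independent although the cows were shared between seasons. A replicate block gave 1426 called genes, 1180 of which were among the 1671 called without it, and under this block ADIPOR1 was 0.43 (adjusted p = 0.132), ADIPOR2 0.75 (0.144), INSR 0.05 and GHR -0.73. The depth of each library is unknown, which limits what can be said of PRLR and LEPR most.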
